A study of Homo sapiens with 7 samples.

Results

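The MiT/TFE transcription factors and the folliculin axis were described here as 9 of the 36337 gene names on the array: TFEB, TFE3, MITF, TFEC, FLCN, FNIP1, FNIP2, RRAGC and RRAGD. Members were the non-control spots whose gene name in the scanner files was one of these 9 symbols, and this found 17 of the 50599 probes, each printed as 1 spot. The study asked whether stress stimuli change transcription in the way that extra chromosomes do, and one stimulus was bafilomycin A1, an inhibitor of the vacuolar proton pump. The treated samples were 4 replicates of HCT116, a near-diploid human colon carcinoma line, as a derivative in which histone H2B is fused to GFP, given 10 nM bafilomycin for 30 h. The labels give medium with 10% serum, where the methods name a lower concentration, and 5% CO2 for all of them, and 100 ng of total RNA went into each Cy3 labelling. The 3 untreated samples of the same derivative were not analysed here, so no level below is a response to the drug, and no difference between conditions was tested. The labels number the replicates without saying that they came from separate cultures. The methods say that evaluated experiments had independent biological replicates but do not name these samples, so the spread between arrays may be partly technical.

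TFEB, TFE3, MITF and TFEC form a small family of basic helix-loop-helix leucine zipper proteins that bind E-box sequences and drive genes for lysosomes and autophagy. When nutrients are plentiful, mTORC1 on the lysosome phosphorylates TFEB and TFE3 and keeps them in the cytoplasm, and when the lysosome is disturbed they lose these phosphates and enter the nucleus. Folliculin, with its partner FNIP1 or FNIP2, switches the RagC and RagD GTPases into the state that brings TFEB and TFE3 to mTORC1. This regulation acts largely on where the proteins lie, which an mRNA array does not measure.

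The probe sequences were compared for runs of bases shared between gene names, and what each probe binds was not tested. 5 probes are printed whole, 1 each for the factors TFEB, TFE3 and MITF and for both Rag GTPases, with capitals marking the longest run of bases that also occurs in a probe of another gene name.
TFEB A_33_P3398634: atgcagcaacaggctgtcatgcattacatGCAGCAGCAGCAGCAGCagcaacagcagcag
TFE3 A_33_P3370076: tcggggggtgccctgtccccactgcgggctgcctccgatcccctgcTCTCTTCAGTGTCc
MITF A_23_P73345: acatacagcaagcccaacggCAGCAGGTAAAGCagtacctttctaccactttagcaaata
RRAGC A_23_P97623: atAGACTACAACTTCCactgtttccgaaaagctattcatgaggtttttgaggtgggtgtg
RRAGD A_23_P133691: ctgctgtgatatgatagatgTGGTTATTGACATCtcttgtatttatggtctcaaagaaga
The run was 17 bases in the TFEB probe, where it is a repeat of CAG triplets, and 13 or 14 bases in the other 4 probes. Over the whole array, 5.36% of probes shared a run of 17 bases or more with a probe of another gene name, and 93.8% shared 13 bases or more. In the 12 member probes not printed whole, the run was 17 bases in FLCN A_33_P3254306 and 13 to 15 bases in the others.

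The TFEC and FLCN probes carry the results on detection, and bases 16 to 45 of each 60-base probe are shown.
TFEC A_33_P3224710: ccattgtctagtagacatgtctaaagttca
TFEC A_32_P184394: acaaggctaaaattaattcagctatttaat
FLCN A_23_P414308: accctccgatctcggtgtgattgttgtgat
FLCN A_24_P173124: tacgtttggttacagttaactattttcgga
FLCN A_33_P3254306: ctgaaatcctcttataagaataaagtacgt
FLCN A_33_P3359763: ggacaggagaagctcaaccgatttctgttc
The scanner files place these probes on GRCh37, the TFEC probes at chr7:115580101-115580160 and chr7:115575497-115575556 and the FLCN probes, in the order shown, at chr17:17124668-17124727, chr17:17116134-17116193, chr17:17128139-17128198 and chr17:17126164-17126223, all on the minus strand. The first 2 FLCN probes were designed on RefSeq transcripts, variant 2 and variant 1 in this order, and the last 2 on different Ensembl transcripts. Whether the 4 probes read the same transcripts was not tested. Exon and UTR positions were not analysed here.

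8 of the 9 members were detected, which means that at least 1 of their probes was marked well above background on all 4 arrays. Over all gene names on the array, 52.5% were detected by this rule. The member that was not detected was TFEC, the family member known mainly from macrophages. Of the 17 member probes, 13 were well above background on all 4 arrays, beside 48.7% of all probes. No member spot was saturated and none was marked as outlying, 0 in both cases. The share of spots well above background ranged from 55.6% to 60.4% between arrays, and 514 to 2249 outlying spots per array were left out. As these are bulk RNA samples, fewer cells expressing a gene and less RNA per cell cannot be told apart.

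**Figure D1:**
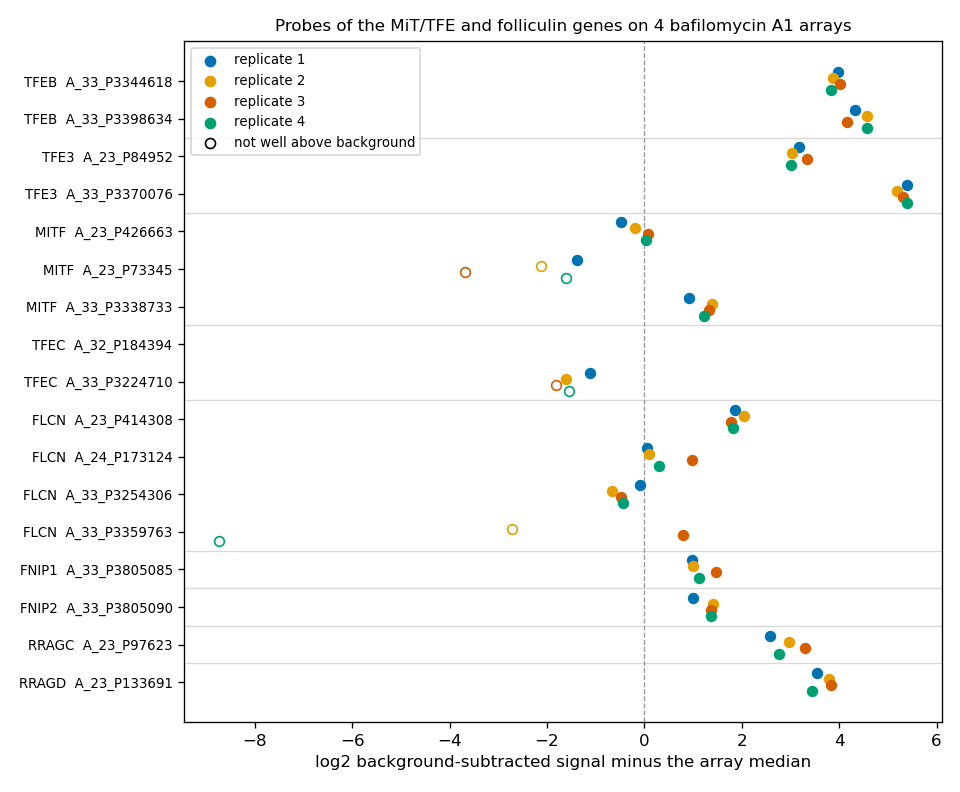
Level of each of the 17 probes on each array, as log2 of the background-subtracted signal minus the array median (x axis), with 1 row per probe and 1 colour per replicate. Filled points are well above background, open points are not, signals at or below 0 have no point, and levels of different rows are not comparable. The single filled point of FLCN A_33_P3359763 is replicate 3.

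TFEB, the factor most studied as a driver of lysosomal genes, was read by 2 probes. A_33_P3344618, at chr6:41651718-41651777 on the minus strand, gave background-subtracted signals of 1207, 1022, 1142 and 909 intensity units on replicates 1 to 4. A_33_P3398634, the probe with the CAG repeat, at chr6:41658820-41658879 on the same strand, gave 1535, 1663, 1258 and 1500. After subtraction of the array median on the log2 scale, the levels of the first probe were 3.97, 3.87, 4.02 and 3.84 and those of the second 4.32, 4.57, 4.16 and 4.56. The probes moved in opposite directions on replicate 3, which was the highest array of the first probe and the lowest of the second. Their difference therefore ran from -0.72 on replicate 4 to -0.14 on replicate 3, a range of 1.499-fold. The median of both probes was 4.16 ± 0.06 (SD, n = 4), an SD below that of either probe alone, 0.09 and 0.20. This did not hold under other scalings, where the SD of the median was 0.11 with the processed signal and 0.15 after quantile normalization and that of A_33_P3344618 was 0.10 and 0.09. Replicate 3 was also the lowest array of A_33_P3398634 with the processed signal and after quantile normalization, whereas A_33_P3344618 was then highest on replicate 1.

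TFE3, which shares the lysosomal programme with TFEB, was read by 2 probes on the X chromosome. A_23_P84952, at chrX:48886495-48886554, gave signals of 698, 569, 711 and 514 on replicates 1 to 4, and A_33_P3370076, at chrX:48887729-48887788, gave 3256, 2539, 2768 and 2647, both on the minus strand. The log2 levels were 3.18, 3.02, 3.34 and 3.02 for the first and 5.40, 5.18, 5.30 and 5.38 for the second. Replicate 2 was the lowest array of the second probe and lay just above the lowest, replicate 4, in the first. The level of TFE3 over both probes was 4.23 ± 0.10 (SD, n = 4), and the arrays spanned 1.16-fold. The difference between its probes varied over a range of 1.32-fold.

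MITF, the factor required for melanocytes, was read by 3 probes that lie on the plus strand of chromosome 3. A_33_P3338733, at chr3:70014715-70014774, gave signals of 145, 183, 177 and 149 on replicates 1 to 4. A_23_P426663, at chr3:70017269-70017328, gave 54.98, 61.2, 73.8 and 64.6. A_23_P73345, at chr3:69987007-69987066, gave 29.4, 16.1, 5.44 and 20.9. The first 2 were well above background on all arrays, and A_23_P73345 was so on replicate 1 alone. Replicate 1 was the lowest array of both probes detected on all arrays and the highest of A_23_P73345. The gene's level, the median of the 3 probes, was that of A_23_P426663 on every array, -0.49, -0.20, 0.07 and 0.03, or -0.15 ± 0.26 (SD, n = 4). These arrays spanned 1.47-fold, and the span was 1.31-fold after quantile normalization. When A_23_P73345 was left out, the level was 0.53 ± 0.22 (SD, n = 4), above the array median, and the span was 1.41-fold.

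TFEC gave a signal above 0 with 1 of its 2 probes. A_33_P3224710 gave 35.6, 23.0, 20.01 and 21.7 on replicates 1 to 4 and was well above background on replicates 1 and 2 only. A_32_P184394 gave -4.66, -7.13, -5.22 and -7.43, below the subtracted background on every array. By the more lenient flag of the scanner software, for signals that are positive and differ from background, TFEC passed on all 4 arrays and all 9 members were then detected. The share of all gene names that pass this flag was not counted, so the 9 have no comparison.

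FLCN, which encodes folliculin and is mutated in Birt-Hogg-Dubé syndrome, was the member whose probes differed most between arrays. A_23_P414308 gave signals of 280, 287, 241 and 223 on replicates 1 to 4, which is 1.87 ± 0.11 (SD, n = 4) on the log2 scale. A_24_P173124 gave 80.5, 74.8, 138 and 78.3, with replicate 3 far above the other arrays and a span of 1.88-fold. A_33_P3254306 gave 72.6, 44.3, 50.1 and 46.7, with replicate 1 the highest and a span of 1.49-fold. The highest array was thus a different one in each of the 3 probes detected on all arrays, replicate 2 in the first. The difference between A_24_P173124 and A_33_P3254306 was 0.15, 0.76, 1.46 and 0.75 on replicates 1 to 4, a range of 2.48-fold, the largest among the 6 pairs of probes of a member in which both were detected on all arrays.

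The fourth FLCN probe, A_33_P3359763, gave -3.49, 10.66, 122 and 0.148 on replicates 1 to 4 and was well above background on replicate 3 alone. The error given by the scanner software was 12.9 on replicate 3 and 4.31 to 4.47 on the other arrays, where the signal was not well above background and gives no measured fold. The spot was not marked as outlying on any array. The 19 measured spots within 2 rows and columns of it were higher on replicate 3 than the mean of the other arrays by a median of 0.30 on the log2 scale. Over all detected genes, replicate 3 lay a median of 0.10 above the mean of 4 arrays, which is not the same measure. Across the array, 5.29% of probes were well above background on exactly 1 array, which was replicate 1 for 2.33% of probes, replicate 2 for 1.25%, replicate 3 for 1.2% and replicate 4 for 0.514%. Probes that were so at more than 10 times the highest other array made up 0.3%, 0.255%, 0.298% and 0.158% for replicates 1 to 4. For this count a highest other signal below 1 was set to 1, and the ratio is a counting rule and not a measured fold. Replicate 3 was the highest array of this probe and of A_24_P173124. It was the lowest of A_23_P414308 after centring on the array median, whereas the uncentred signal of that probe was lowest on replicate 4.

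**Figure D2:**
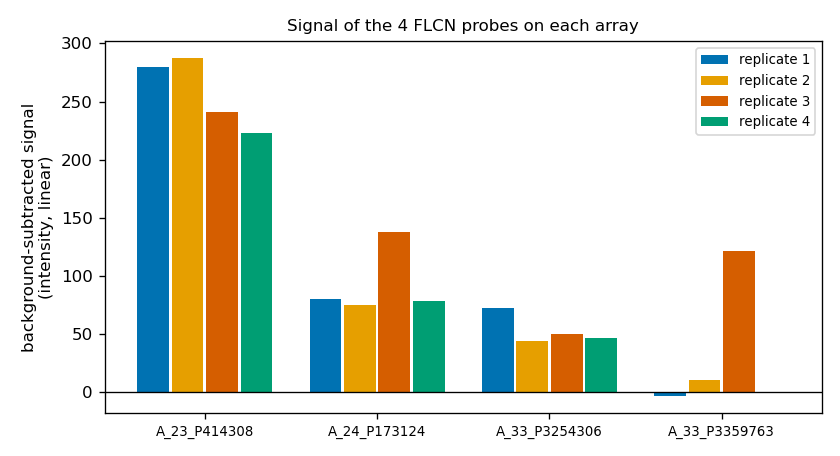
Background-subtracted signal, on a linear intensity scale that includes 0, of the 4 FLCN probes on each of the 4 arrays, with 1 bar per replicate. Replicate 3 stands above the others in A_24_P173124, at 138, and in A_33_P3359763, at 122, and not in the other 2 probes. Heights of different probes are not comparable.

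Over its probes the level of FLCN was 0.06, -0.28, 0.88 and -0.07 on replicates 1 to 4, from 3 probes on replicate 1 and 4 on the others. This gave 0.15 ± 0.51 (SD, n = 4) and a span of 2.25-fold, the widest of the 8 detected members. Without A_33_P3359763, a choice made after its values were seen, the SD was 0.42 and the span 1.88-fold, and without replicate 3 the SD was 0.18.

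FNIP1 and FNIP2 encode the partners that folliculin needs to act on the Rag GTPases, and each was read by 1 probe. FNIP1 A_33_P3805085, at chr5:130979066-130979125 on the minus strand, gave signals of 152, 140, 193 and 138 on replicates 1 to 4. Replicate 3 was the highest and the other 3 arrays lay close together, at log2 levels of 0.98, 1.00, 1.46 and 1.12. The level was 1.14 ± 0.22 (SD, n = 4), with a span of 1.398-fold that lies just under the 1.4-fold used for counting below. FNIP2 A_33_P3805090, at chr4:159826766-159826825 on the plus strand, gave 154, 187, 181 and 165. After centring, replicate 1 lay apart at 1.00, with 1.42, 1.37 and 1.37 on replicates 2 to 4, and the level was 1.29 ± 0.20 (SD, n = 4). By Dixon's ratio, FNIP2 was the 1 detected member of 8 in which a single array stood apart, beside 8.48% of all detected genes, and with the processed signal or after quantile normalization there was none (0 of 8).

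RRAGC and RRAGD encode RagC and RagD, the GTPases on which folliculin acts, and each had 1 probe on the minus strand. RRAGC A_23_P97623, at chr1:39305312-39305371, gave signals of 462, 553, 694 and 432 on replicates 1 to 4. Its log2 levels were 2.59, 2.98, 3.30 and 2.77, or 2.91 ± 0.31 (SD, n = 4), with replicate 3 the highest and a span of 1.65-fold, the widest of the 4 members with a single probe. RRAGD A_23_P133691 gave 895, 970, 1000 and 693, and its coordinates in the files run over 5145 bases of chromosome 6 for 60 bases of probe, chr6:90082293-90087437. Its log2 levels were 3.54, 3.79, 3.83 and 3.45, or 3.65 ± 0.19 (SD, n = 4). Replicates 2 and 3 were higher than replicates 1 and 4 in both Rag genes. The same held for the median deviation of all detected genes from their means, -0.03, 0.03, 0.10 and -0.10 on replicates 1 to 4.

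Set beside all genes, the detected members varied between arrays about as much as other genes. Their median SD was 0.21 on the log2 scale, and the median over all 19083 detected genes was also 0.21. 3 of the 8 members, MITF, FLCN and RRAGC, spanned more than 1.4-fold between their highest and lowest array, beside 46.4% of all detected genes. The threshold is the fold that the study applied to changed genes. Of the 13 member probes detected on all arrays, 4 spanned more than 1.4-fold, beside 43.5% of all such probes, and their SDs ran from 0.09 for TFEB A_33_P3344618 to 0.42 for FLCN A_24_P173124. Of the probes, 5 passed with the processed signal, beside 38.5%, and 3 after quantile normalization, beside 16.8%.

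**Figure D3:**
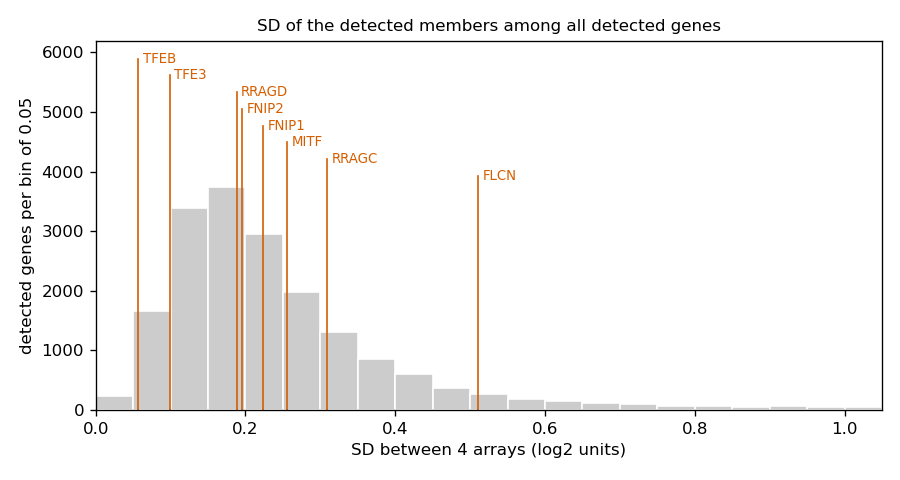
Histogram of the SD between the 4 arrays (x axis, log2 units) over the detected genes, in bins of 0.05 (y axis, genes per bin), with a line at the SD of each of the 8 detected members; line heights only separate the labels. The members run from 0.06 for TFEB to 0.51 for FLCN, and 798 genes beyond the right edge are not drawn.

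Replicate 3 was the highest array in 6 of the 8 detected members, TFE3, MITF, FLCN, FNIP1, RRAGC and RRAGD. It was also the highest array in 48.5% of all detected genes. Replicate 1 was the lowest array in 4 members, MITF, FNIP1, FNIP2 and RRAGC, and in 26.9% of all detected genes. With the processed signal replicate 3 was highest in 4 members, beside 40.5% of genes, and after quantile normalization in 3 members, beside 37.9%. The members for which replicate 3 was highest under all of these scalings were FLCN, FNIP1 and RRAGC.

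**Figure D4:**
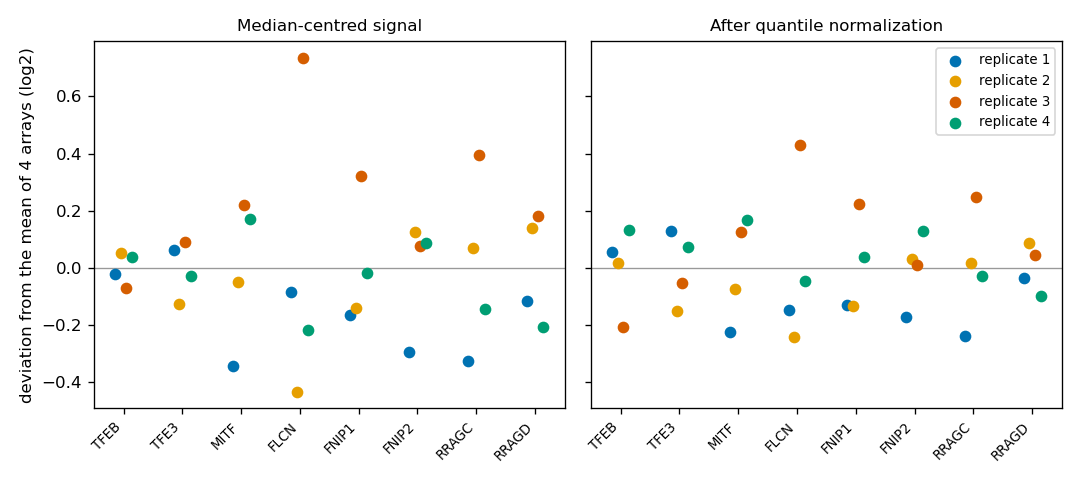
Deviation of each detected member on each array from its mean over the 4 arrays (y axis, log2 units), with the median-centred signal on the left and after normexp background correction and quantile normalization on the right. FLCN on replicate 3 is the point farthest from 0 in both panels, at 0.73 on the left, and TFEB on replicate 3 lies below 0 in both.

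The proteins through which folliculin and the Rag GTPases reach mTORC1 were listed next. All 18 of 18 genes of the Rag, Ragulator and mTORC1 list were detected, beside 52.5% of all gene names. The median SD of these 18 genes was 0.13, and 7 of them spanned more than 1.4-fold, beside a median SD of 0.21 and a share of 46.4% over all detected genes. RRAGA and RRAGB, which encode the GTPases that pair with RagC or RagD, were at 6.88 ± 0.22 and 0.29 ± 0.22 (SD, n = 4). They are close paralogs, and cross-binding between them was not tested. The 5 Ragulator subunits, which hold the Rag GTPases on the lysosome, were all detected, LAMTOR4 and LAMTOR5 under the older names C7orf59 and HBXIP. SDs of LAMTOR1, LAMTOR2, LAMTOR4 and LAMTOR5 were 0.10, 0.11, 0.11 and 0.15, and that of LAMTOR3 was 0.39. MTOR, the kinase itself, had an SD of 0.09. The smallest SDs of the list were 0.05 for RPTOR, the mTORC1 subunit that binds substrates, and 0.07 for TBC1D7, a subunit of the TSC complex. Its largest were 0.51 for DEPDC5, a subunit of the GATOR1 complex that inhibits RagA and RagB, and 0.39 for LAMTOR3, both as medians over probes. The highest probe well above background on all arrays had an SD of 0.20 for DEPDC5, 0.23 for LAMTOR3 and 0.18 for TBC1D7.

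Genes of proteins that regulate TFEB and TFE3 were listed as well, such as kinases, calcineurin, adaptor proteins of the YWHA family and the exporter XPO1. All 18 of 18 were detected, beside the same 52.5% of gene names. The median SD was 0.22, and 8 genes spanned over 1.4-fold, beside the same 46.4%. MCOLN1, the lysosomal calcium channel upstream of calcineurin and itself a target of TFEB, was at 1.92, 1.82, 1.30 and 1.56 on replicates 1 to 4. Here replicate 3 was the lowest array, and the SD was 0.28. The kinase AKT1 and the adaptor SFN had the smallest SDs, 0.07 and 0.09. The calcineurin subunit PPP3CA and the kinase MAP4K3 had the largest, 0.42 and 0.71. MAP4K3, with 1 probe, lay below the array median on every array, at -1.69, -0.68, -0.12 and -1.42 on replicates 1 to 4.

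CLEAR genes, the lysosomal and autophagy genes regarded as targets of TFEB and TFE3, were detected in 35 of 37 cases, beside the same 52.5%. The median SD was 0.19, and 14 genes spanned over 1.4-fold, beside the same 46.4%. The 2 not well above background on any array were ATP6V0D2, a proton pump subunit known from osteoclasts and kidney, and PPARGC1A, a coactivator of mitochondrial genes. The smallest SDs were 0.06 for the sialidase NEU1 and 0.08 for VPS18, a subunit of the tethering complexes of late endosomes. The largest were 1.02 for CTSA, the protective protein of NEU1, and 1.69 for the glycoprotein GPNMB. CTSA was at 6.83, 6.81, 4.71 and 6.599 on replicates 1 to 4, from 1 probe on replicate 3 and 2 on the others. GPNMB was at -1.46, 1.02, -1.996 and 1.29, from 2 probes on replicates 1 and 3 and 1 on replicates 2 and 4. The CTSA probe without a value on replicate 3 was left out there as an outlying spot, and the GPNMB probe without values on replicates 2 and 4 had signals below 0. For the highest probe of each gene with a value well above background on all arrays, the SD was 0.40 for CTSA and 0.26 for GPNMB.

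**Figure D5:**
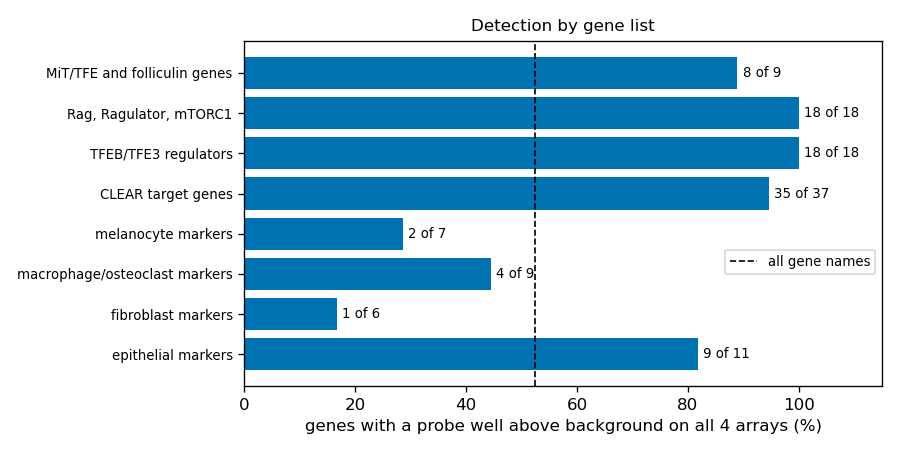
Share of the genes of each list with at least 1 probe well above background on all 4 arrays (x axis, percent), with the counts beside the bars and a dashed line at the 52.5% of all gene names. The members and the 3 pathway lists lie above the line, and the melanocyte, macrophage and osteoclast, and fibroblast markers below it. The line covers all 36337 gene names and is not matched to the kinds of gene in the lists.

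The labelled cell type was checked against marker lists of epithelial cells and fibroblasts. Lists for melanocytes and for macrophages and osteoclasts cover cells in which MITF or TFEC is abundant. Of 11 epithelial markers 9 were detected, beside 52.5% of all gene names. The detected markers included EPCAM, KRT8, KRT18 and CDX2, an intestinal transcription factor. VIL1 and CDH17 were not well above background on any array. Of 7 melanocyte markers 2 were detected, DCT and PMEL. TYRP1 and SLC45A2 were well above background on 3 arrays, TYR on 1, and MLANA and OCA2 on none (0 arrays). Of 9 macrophage and osteoclast markers 4 were detected, PTPRC, ITGAM, ACP5 and CTSK. CSF1R was well above background on 3 arrays. CD14 was so on replicates 1 and 4, at 1.16 and 1.29. It had no value on replicates 2 and 3, where its probe was left out as outlying or was not above 0. Of 6 fibroblast markers 1 was detected, COL1A1. The part of other cells in the MITF and TFEC signals was not tested.

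The E-box CACGTG was searched for in the RefSeq promoters of the members on GRCh38.p14, because it is the core of the motif that MiT/TFE proteins bind. A promoter runs from 250 bases before to 50 bases after a transcript start, the motif reads the same on both strands, and 14 promoters of 8 members were in the table. RRAGD had no entry. It lay in 2 of the 14, those of FNIP1 and RRAGC, both on the minus strand, and in 7.26% of all 35116 promoters. The windows that hold it are shown with the motif in capitals.
FNIP1 chr5:131797080-131797218: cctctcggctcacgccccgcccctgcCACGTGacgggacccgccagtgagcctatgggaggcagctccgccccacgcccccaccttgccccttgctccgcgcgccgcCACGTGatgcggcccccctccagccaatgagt
RRAGC chr1:38859853-38859910: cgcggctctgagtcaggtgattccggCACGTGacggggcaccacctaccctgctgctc
In FNIP1 the motif began 175 and 94 bases before the start, and in RRAGC 112 bases before it. The longer form TCACGTGA, which contains the core, was in no member promoter (0 of 14) and in 0.98% of all promoters. The CLEAR element of 10 bases, which contains both, was likewise in 0 of 14 and in 0.353% of all promoters. Binding of the factors was not measured.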

How the data were processed

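RNA of the 4 bafilomycin samples was hybridised to 1-colour Agilent arrays that shared 1 slide, so slide was no batch to test. The authors deposited 1 scanner file per array with intensity values on a linear scale, as Agilent Feature Extraction 10.7.3.1 wrote them, background-subtracted, spatially detrended and not normalized between arrays. The deposited files also hold a p-value per spot against background, which was not used, and yes-or-no marks for saturation, for outliers and for a signal well above background. The design coordinates are those of GRCh37.

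Following the methods, log2 was taken of each background-subtracted signal, the array median was subtracted and the probes of a gene were summarised by their median. Here the array median ran over non-control probes with a signal above 0, outlying spots were left out, and a signal at or below 0 was left out on that array. A probe was well above background when over 50% of its spots were, and a gene was detected when 1 of its probes was so on all 4 arrays. A probe with all its spots left out as outlying on an array counted there as not well above background. Older symbols were looked up in a RefSeq gene table. With 4 arrays, their number sets the precision of every mean and SD.

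The members, the gene lists and the questions were chosen with earlier results of these data known. Outlying spots are those marked by 2 spot flags or 2 background flags. The plan did not say which flags to use, and this was settled after the counts under both readings had been seen. Named genes are the members and all their probes, RRAGA, RRAGB, the LAMTOR genes, MTOR, RPTOR and MCOLN1, and per pathway list up to 5 genes well above background on no array and the 2 genes with the largest and the 2 with the smallest SD. The markers EPCAM, KRT8, KRT18, CDX2, TYR, PMEL, MLANA, CD14 and CSF1R were also fixed, and the other detected markers were named after their counts were seen.

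The alternatives tried were the 75th percentile of the processed signal as centre, limma 3.58.1 normexp with an offset of 50 and quantile normalization, other centring, probe filters, flags and detection rules, and leaving out each array. The SD and Dixon statistics were tested on simulated data, and the span was not. A planned comparison of protein sequences was not run. Computation ran in R 4.3.3 and Python 3.11.15 (pandas 2.3.3, numpy 2.4.6), with figures from matplotlib 3.10.9.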

Additional observations from a re-analysis of the deposited data

Results flagged for a closer look

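The level of FNIP2 on replicate 1, 1.00 on the log2 scale after centring, lay below the other 3 arrays, which were close together between 1.37 and 1.42. Its whole span was 1.34-fold, under the 1.4-fold used for counting. FNIP2 has 1 probe, so the probe A_33_P3805090 and the gene carry the same value of 1.00. Dixon's ratio, the gap to the nearest array divided by the whole range, was 0.881, above the 95% critical value for 4 arrays. This was the only array that stood apart among 23 probe and gene values tested, where the probe and the gene count as 2. Of all detected genes, 8.48% had an array that stood apart by this measure, and chance alone gives about 5%. The raw signal of FNIP2 on replicate 1, 154, was also its lowest, with 165 on replicate 4. With the processed signal and after quantile normalization, replicate 1 was still the lowest array of FNIP2, at -1.11 and 1.11, and no member stood apart. The cause was not tested.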

How the results depend on the processing

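No paired analysis was possible because the untreated samples that share replicate numbers with the treated ones were not analysed here. The number of detected members was 6 to 9 under every detection rule tried, 6 when every probe of a gene had to pass, and 8 without any single array. Beside these counts, the share of all gene names is known only for the main setting, 52.5%, and for the 2-flag reading below. The 3 pathway lists counted 18, 18 and 35 detected genes with the lenient flag and with each array left out, and the other detection rules were not run on them. The median SD of the detected members, 0.209 in the main setting, was 0.169 with the processed signal, 0.158 after quantile normalization and 0.277 when the array median was taken over all probes. It ranged from 0.176 to 0.251 when each array was left out in turn. Of members spanning more than 1.4-fold there were 3 in the main setting, beside 46.4% of all detected genes. There were 3 with the processed signal, 2 after quantile normalization and 5 with the median over all probes. With each array left out there were from 1 to 3, the 1 being without replicate 3. The share of all detected genes was not counted in these other settings, so whether other genes changed alike is not known. With outlying spots kept, or with only the 2 spot flags used to remove them, FNIP1 passed the threshold as well and the count was 4. The reading with 2 flags, added after seeing the data, detected 19689 genes, or 54.2% of gene names. Of these detected genes, 45.6% spanned more than 1.4-fold. The count of members with 1 array apart was 1 in the main setting, 0 with the processed signal and 0 after quantile normalization. The cause of these changes was not tested. Levels moved by more than 1 SD in 8 of 8 members with the processed signal and in 8 with the median over all probes. In both settings the zero of the scale itself shifts, so these counts do not measure how stable the levels were. After quantile normalization, levels moved by more than 1 SD in 5 members. Without the fourth FLCN probe, FLCN still had the largest SD of the members, 0.42, so their median SD of 0.209 could not change. Signal over background limits TFEC, MITF A_23_P73345 and FLCN A_33_P3359763, whose levels near background have no measured fold.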
